A study of Homo sapiens with 402 samples.

Results

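The genes described here are 10 autophagy genes: the selective autophagy receptors SQSTM1, NBR1, OPTN, TAX1BP1 and CALCOCO2, the ATG8-family genes GABARAPL1 and MAP1LC3B, the initiation kinase ULK1, the phagophore protein WIPI1 and the transcription factor TFEB. They were chosen by name from the gene rows of the deposited count files, with earlier results of the same files known, and all 10 were found. The files list 34718 gene symbols for 4 plates and 15081 for the plate of DDE, and all 10 members passed the filter on low counts on each of the 5 plates. Because the choice was made with those results in view, the difference of each member from its controls is given below as a description, without a p-value.

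MCF10A is an immortalised, non-tumorigenic line of human breast epithelium, and all libraries came from it, with the genotype labelled WT. Cells in 384-well format were exposed for 48 h to 1 of 21 chemicals at 0.025, 0.25, 2.5 or 25 µM, and lysates were sequenced by plexWell, a plate-based RNA-seq method in which well and plate barcodes mark each library. The 402 libraries, 333 dosed and 69 controls, fall on 5 plates by the plate barcode in their titles, with 4 biological replicates per dose in most groups. The metals (arsenic, cadmium, lead, copper) and mercury shared plate 3153-AT, whose 15 controls had received water. Plate 3206-AT carried the bisphenols BPA, BPF and BPS and the parabens MPB and PPB, beside 15 DMSO controls. On plate 3240-AT, PFOA is set against 4 water controls, and phenanthrene, PFOS, PFNA and PFDA against 12 in DMSO. Thiram, PCB187, PCB153, DCP_25 and DCB_14 were on plate 3284-AT, which had 15 controls in DMSO. The DDE plate held 4 doses of DDE, labelled as in DMSO, and 8 controls that carry its barcode but are labelled as water controls, so the solvent and the exposure cannot be told apart there. Cadmium at 25 µM had 2 libraries on plate 3153-AT. A further library with that label carried the barcode of plate 3284-AT and was left out.

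Selective autophagy delivers chosen cargo, such as protein aggregates and damaged organelles, to the lysosome. Receptor proteins bind ubiquitinated cargo with one domain and ATG8-family proteins on the growing membrane with another, and the membrane closes into an autophagosome that fuses with a lysosome. SQSTM1, also called p62, is the best known receptor; it is itself degraded by autophagy, it binds KEAP1, and its gene is a target of the stress factor NFE2L2 (NRF2). ULK1 starts the process, WIPI1 acts where the membrane forms, and TFEB switches on lysosomal and autophagy genes. Transcript counts do not measure the flow of cargo through the pathway, and in lysates of whole wells fewer cells and less RNA per cell cannot be told apart.

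RefSeq promoters of the 10 members were searched for 4 short motifs, since NRF2, TFEB and the CHOP-ATF4 pair are the best known regulators of this gene set. The table (GRCh38.p14) held 17 windows for the 10 genes, each from 250 bases before to 50 after a transcript start, among 35116 windows in all. Sequence outside these windows was not searched, so a motif farther from a start would be missed. On both strands, none of the 17 held TCACGTGA (0.98% of all windows), its core CACGTG (7.26%) or the CHOP-ATF4 composite TGATGNAA (3.62%). The antioxidant response element core TGACNNNGC (13.3%) matched in 1 window each of MAP1LC3B and CALCOCO2; these matches are letters in a window, not tested as sites. The 250 bases upstream of those starts are printed with the match in capitals, and those of the most downstream SQSTM1 start beside them because SQSTM1 was the member that moved in most exposures and held none of the 4 motifs there. The SQSTM1 stretch is chr5:179820655-179820904 (+), the MAP1LC3B stretch chr16:87392086-87392335 (+) and the CALCOCO2 stretch chr17:48830785-48831034 (+).
SQSTM1: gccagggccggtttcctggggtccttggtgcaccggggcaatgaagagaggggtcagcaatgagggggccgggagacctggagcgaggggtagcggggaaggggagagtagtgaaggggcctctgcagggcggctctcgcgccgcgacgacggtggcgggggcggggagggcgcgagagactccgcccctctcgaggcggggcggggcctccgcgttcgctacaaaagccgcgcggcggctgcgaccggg
MAP1LC3B: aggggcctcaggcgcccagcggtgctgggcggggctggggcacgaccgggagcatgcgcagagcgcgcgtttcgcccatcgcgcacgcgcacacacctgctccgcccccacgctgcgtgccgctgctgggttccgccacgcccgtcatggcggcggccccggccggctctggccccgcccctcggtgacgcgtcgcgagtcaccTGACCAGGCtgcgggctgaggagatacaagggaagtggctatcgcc
CALCOCO2: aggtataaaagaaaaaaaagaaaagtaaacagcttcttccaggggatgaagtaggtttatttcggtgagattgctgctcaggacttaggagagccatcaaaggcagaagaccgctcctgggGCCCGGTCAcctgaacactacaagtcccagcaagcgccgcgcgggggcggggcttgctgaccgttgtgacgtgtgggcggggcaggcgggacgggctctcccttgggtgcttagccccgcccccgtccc
The MAP1LC3B match began at base -46 from the start on the gene's strand, and the CALCOCO2 match at -129 on the opposite strand.

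Total counts per fitted library ran from 1434176 in cadmium at 25 µM to 25769692, both on plate 3153-AT; the library left out held 1284517. The control libraries had the keratins and adhesion genes of basal breast epithelium: KRT5 was between 695 and 4814 CPM, KRT6A between 754 and 3594 and ITGB4 between 93.4 and 549. KRT14 ranged from 2.21 to 1397 CPM (plate medians from 9.0), the adhesion gene CDH1 from 2.0 to 105 (from 5.21) and the basal factor TP63 from 0 to 29 (from 1.80), so these 3 markers were low on some plates. Of the markers of other cells, CD3E and PGR were at 0 in all controls that list them, PTPRC and PDGFRA did not exceed 1.01 CPM, PECAM1 reached 10.1 CPM and COL1A1 reached 19.1 CPM, with its highest plate median of 16 on the DDE plate. CPM values are counts scaled to a common library total after TMM, and TMM is a scaling that equalises the bulk of genes between libraries. A gene is called changed when the edgeR quasi-likelihood test gave a Benjamini-Hochberg adjusted p under 0.05 over all genes of the comparison.

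Across the 21 chemicals at 25 µM, 26 of 210 pairs of member and chemical were called, 22 higher and 4 lower, and they came from 6 chemicals: arsenic, cadmium, copper, lead, thiram and DDE. In arsenic all 10 members were called, where 41.4% of all genes tested were. Thiram had 8 called beside 25.9% of all genes, cadmium 3 beside 11%, copper 2 beside 5.09%, DDE 2 beside 7.77% and lead 1 beside 3.85%. MPB, with 1.38% of genes called, had no member called, and neither had the other 14 chemicals, where 0.0186% of gene tests pooled over chemicals were called. These shares stand beside counts that the choice of members may have shaped, and nothing is read from the difference.

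**Figure D1:**
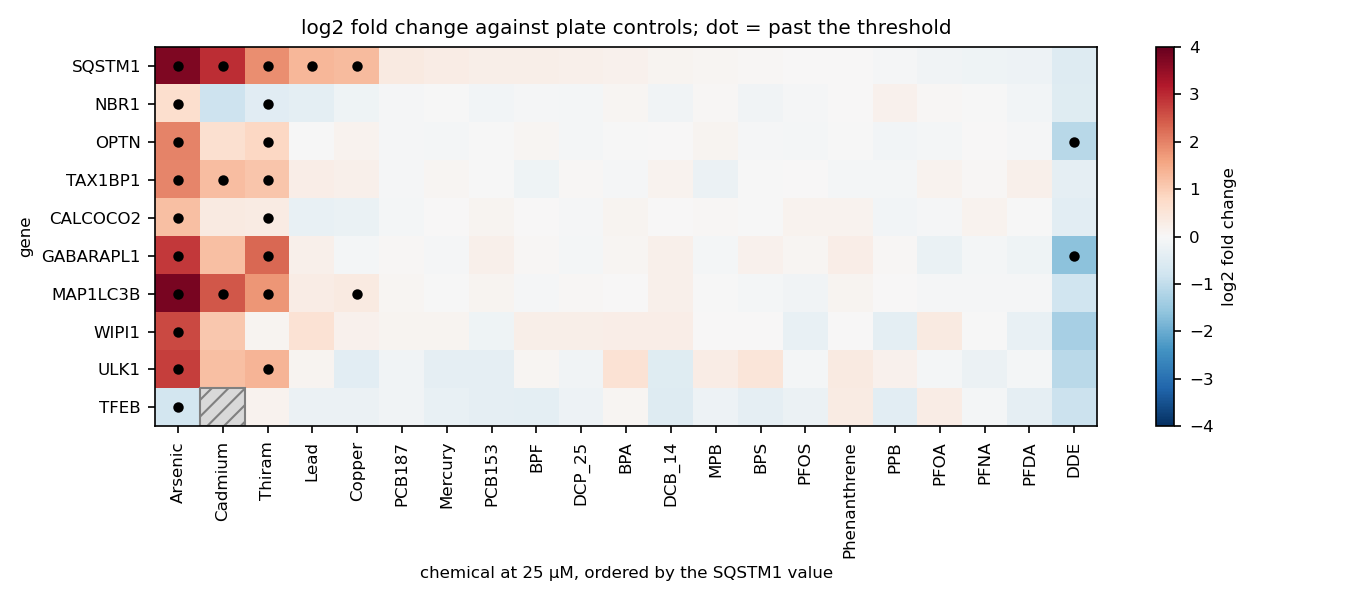
Log2 fold change of the 10 members (vertical axis) at 25 µM against plate controls in each of 21 chemicals (horizontal axis), with a dot where the call was made. The hatched field is TFEB in cadmium, with counts of 1 and 0 in its libraries. SQSTM1 is coloured in 5 chemicals (log2 1.28 to 3.72), the other members mainly in arsenic, cadmium and thiram, and DDE is the only column in which all 10 values are below 0.

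SQSTM1 was the member called in most exposures. In the 15 water controls of plate 3153-AT it ran from 301 to 396 CPM, with a median of 361. The 4 arsenic libraries at 25 µM held 4578, 4347, 4655 and 5169 CPM, a 13.2-fold rise (log2 3.72 ± 0.08 SE). Every arsenic library was thus far above every control. The 2 cadmium libraries held 2589 and 2936 CPM, 7.77-fold above the same controls (log2 2.96 ± 0.11). Lead at 25 µM gave 938, 882, 827 and 887 CPM, a 2.49-fold rise (log2 1.31 ± 0.08) with little spread among the libraries. Copper at 25 µM gave a similar mean of 860 ± 294 CPM (SD, n = 4), but as 1133, 1096, 612 and 601 CPM. The 2 copper libraries with low numbers were 3.09-fold above the low-numbered controls, and the 2 with high numbers 1.74-fold above the high-numbered ones, so the size, not the direction, differed within the chemical. Mercury, on the same plate, had a SQSTM1 value of 0.30 ± 0.09 on the log2 scale and was not called.

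On plate 3284-AT the 15 DMSO controls ran from 348 to 562 CPM for SQSTM1, and the thiram libraries at 25 µM held 1529, 1865, 1819 and 1408 CPM (3.67-fold, log2 1.87 ± 0.13). All 4 thiram libraries lay above all controls. In order of fold change, SQSTM1 was highest in arsenic, then cadmium, thiram, lead and copper. Lead and copper did not differ beyond the spread of the copper libraries. The 14 chemicals with fewest calls gave SQSTM1 values from -0.22 (PFDA) to 0.36 (PCB187) on the log2 scale, none called. Control levels themselves differed by plate, with means of 355 CPM on 3153-AT, 446 on 3206-AT, 492 in DMSO on 3240-AT, 452 on 3284-AT and 1070 on the DDE plate.

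**Figure D2:**
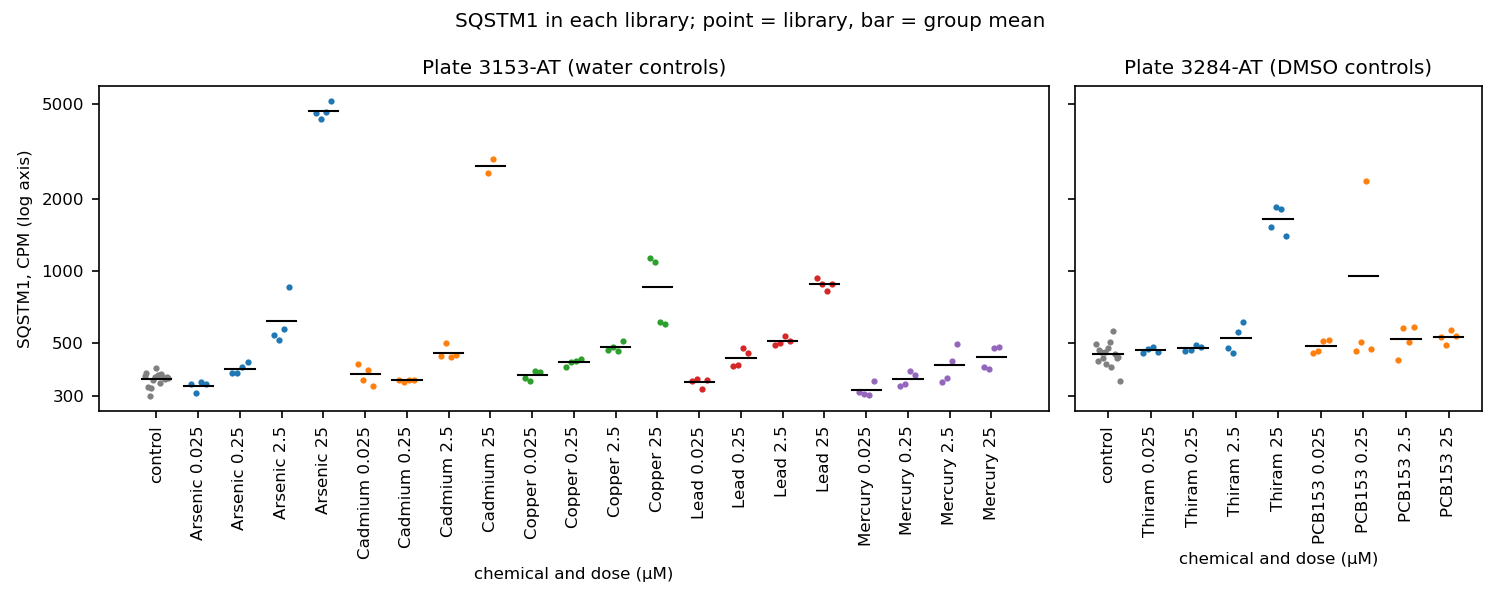
SQSTM1 in CPM (vertical log axis) in each library of the metals on plate 3153-AT (left) and of thiram and PCB153 on plate 3284-AT (right), by dose in µM; points are libraries and bars group means. Arsenic at 25 µM lies between 4347 and 5169 CPM, the 4 copper libraries at 25 µM form 2 pairs, and 1 PCB153 library at 0.25 µM stands at 2383 CPM.

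Below the highest dose, SQSTM1 supplied all 5 of the calls made on the members. At 2.5 µM it was called higher in arsenic (log2 0.81 ± 0.08; 1.96% of all genes called), lead (0.53 ± 0.08; 0.613%), copper (0.44 ± 0.08; 3%) and cadmium (0.36 ± 0.08; 0.235%), and over all 21 chemicals 0.412% of gene tests were called. The 4 lead libraries held 492, 504, 537 and 513 CPM and the 4 copper libraries 467, 484, 463 and 512, all above the highest control at 396. In arsenic, 3 libraries held 516 to 572 CPM and the fourth 858. The cadmium call at 2.5 µM was lost in 7 of the alternatives tried, among them leaving out replicate 1, 2 or 3 (log2 0.38, 0.31 and 0.39), while all 4 libraries, at 439 to 501 CPM, lay above the controls. At 0.25 µM the single call was PCB153, where 0.333% of genes were called and 0.0748% over all chemicals. It rested on replicate 3, with 2383 CPM against 463, 504 and 472 in the other libraries, and without it the log2 value was 0.09. At 0.025 µM no member was called in edgeR's test, where 0.0104% of gene tests over all chemicals were.

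NBR1, a receptor built like SQSTM1, had the smallest rise of the 5 receptors in arsenic. Its water controls ran from 81.9 to 135 CPM, and the arsenic libraries held 155, 174, 166 and 218 (log2 0.67 ± 0.13). Thiram gave the opposite sign: 86.0, 100, 81.7 and 34.4 CPM against DMSO controls of 82.2 to 133 (log2 -0.44 ± 0.14). Replicate 4, the lowest of these, had the smallest total of the thiram libraries, and without it the value was -0.32 and no longer called. Cadmium held 56.5 and 70.0 CPM, both below the lowest control, but the fitted value of -0.84 ± 0.37 was not called.

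OPTN, a receptor known for damaged mitochondria and bacteria, rose in arsenic and thiram. Arsenic gave 225, 213, 201 and 253 CPM against controls of 23.3 to 69.8 (log2 1.98 ± 0.12). Thiram gave 94.6, 113, 119 and 89.0 CPM against controls of 35 to 71.9 (log2 0.82 ± 0.14). In both chemicals the dosed and control libraries did not overlap. Cadmium held 72.8 and 105 CPM, above the highest control only after TMM scaling, with a fitted value of 0.64 ± 0.34 that was not called.

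TAX1BP1, a receptor for ubiquitinated aggregates, was called higher in arsenic, cadmium and thiram. It reached 175, 212, 231 and 212 CPM in arsenic, against 39.5 to 73.2 in the controls (log2 1.95 ± 0.11). The cadmium libraries held 159 and 93.8 CPM after TMM scaling (log2 1.25 ± 0.27), and with replicate 2 alone the value was 0.81 and the call was lost. In thiram the libraries held 102, 96.3, 195 and 124 CPM against controls of 49.4 to 65.9 (log2 1.11 ± 0.13). Replicate 3 was the highest thiram library, and all 4 were above the controls.

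CALCOCO2, also called NDP52, a receptor for bacteria and mitochondria, had the smallest arsenic rise among the receptors apart from NBR1. Its arsenic libraries held 166, 166, 189 and 215 CPM against 63.1 to 101 in the controls (log2 1.20 ± 0.12). Thiram libraries held 92.0, 104, 106 and 72.9 CPM and overlapped with controls of 63.2 to 101. The thiram value of 0.32 ± 0.13 was called but was lost in 8 of the alternatives, including without replicate 1, 2 or 3 (0.32, 0.26 and 0.25). In cadmium it held 123 and 82.6 CPM and was not called.

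The ATG8-family genes code for the small proteins that are attached to the autophagosome membrane and bind the receptors. MAP1LC3B rose in arsenic, cadmium, thiram and copper. In arsenic its libraries held 1452, 1613, 1684 and 1657 CPM against 77.9 to 136 in the controls, a 13.8-fold rise (log2 3.79 ± 0.08). Cadmium gave 732 and 574 CPM (5.65-fold, log2 2.50 ± 0.14), and thiram 395, 375, 480 and 365 CPM against 91.6 to 143 (log2 1.76 ± 0.09). None of these libraries overlapped with its controls. Copper gave a small called rise of 0.35 ± 0.09, from libraries at 182, 163, 118 and 126 CPM, of which the low-numbered pair lay above the controls and the high-numbered pair among them. The copper call was lost without replicate 1 (0.22) or 2 (0.29). Reads of MAP1LC3B and its near-identical copy MAP1LC3B2 may not be separable, so its level is uncertain to that extent.

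GABARAPL1, of the GABARAP branch of the family, had the largest thiram value among the members. Its thiram libraries held 105, 121, 200 and 100 CPM against 11.6 to 44.2 in the DMSO controls (4.89-fold, log2 2.29 ± 0.15). The arsenic libraries held 152, 176, 181 and 167 CPM against 14.1 to 29.2 (7.16-fold, log2 2.84 ± 0.14). The 4 arsenic values were close together, whereas 1 thiram library stood at about the level of arsenic. Cadmium held 47.7 and 61.6 CPM from 38 and 44 counts, above every control after TMM scaling but not both so relative to library totals, and the fitted value of 1.21 ± 0.49 was not called.

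ULK1 codes for the kinase that starts autophagosome formation and WIPI1 for a protein that binds the lipid of the forming membrane. ULK1 held 31.3, 51.6, 64.8 and 33.3 CPM in arsenic against 0.175 to 15.4 in the controls (log2 2.75 ± 0.26). In thiram it held 13, 34.8, 18.5 and 25.3 CPM against 0 to 14.5 (log2 1.37 ± 0.32), with 3 of 4 libraries above the controls. Without thiram replicate 2 the value was 0.99 and the call was lost. WIPI1 held 32.8, 36.9, 55.9 and 47.1 CPM in arsenic against 0.917 to 11 (log2 2.63 ± 0.21). In thiram WIPI1 held 20.6, 12.1, 4.33 and 5.38 CPM, inside the control range of 2.47 to 23.3, and was not called (0.10 ± 0.35). In cadmium the counts were 22 and 0 for WIPI1 and 14 and 9 for ULK1, too few for a value beyond counting error.

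TFEB was low in all groups, and it was the member that was called lower in arsenic. The arsenic libraries held 4.82, 3.95, 5.33 and 8.62 CPM, from 33 to 108 counts, against 5.96 to 15.2 CPM in the controls (log2 -0.74 ± 0.29). This call was lost in 9 of the alternatives: the value was between -0.60 and -0.68 without replicate 1, 2 or 3, and -0.37 with high-numbered libraries only. In thiram it held 9.62, 17.2, 9.85 and 9.52 CPM against 0 to 15.8 and was not called (0.14 ± 0.39). Cadmium libraries held 1 count and 0 counts.

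**Figure D3:**
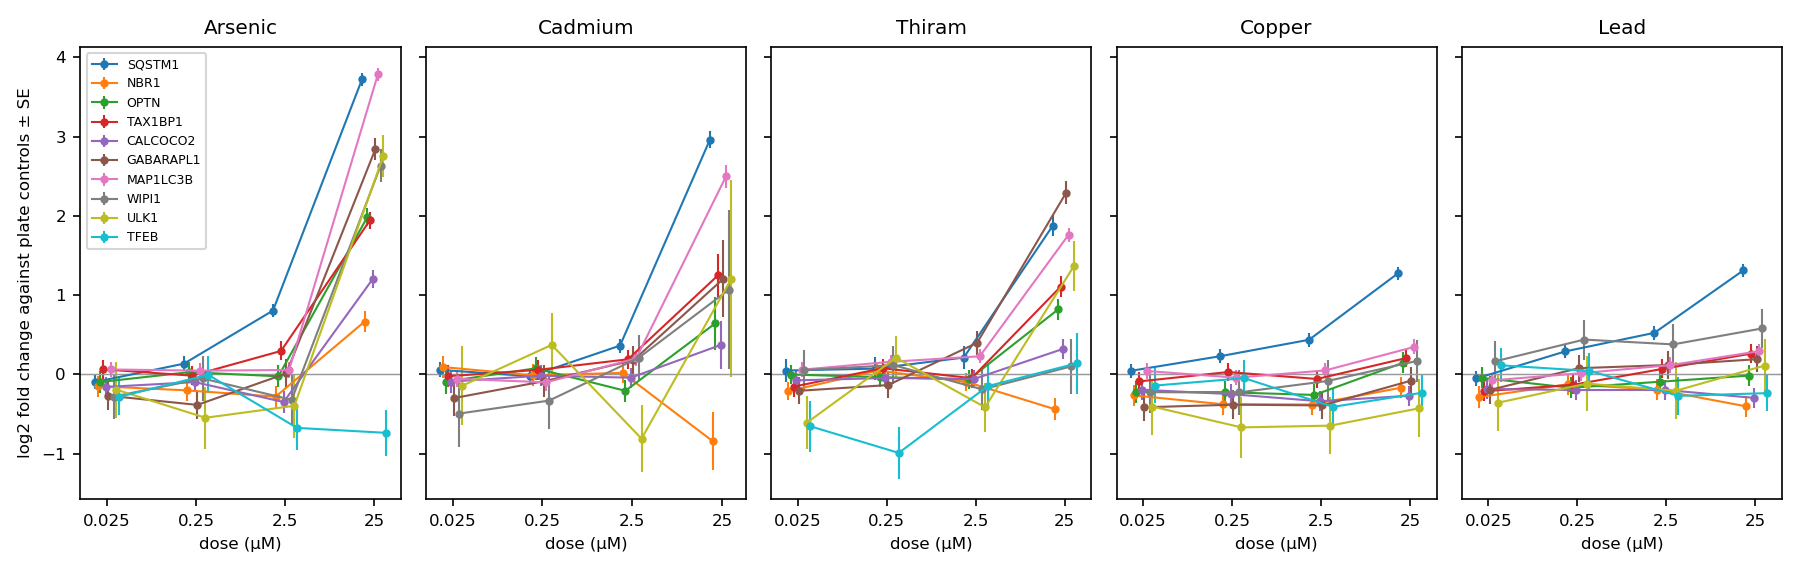
Log2 fold change against plate controls with its SE (vertical axis) at 0.025, 0.25, 2.5 and 25 µM for the 10 members in arsenic, cadmium, thiram, copper and lead; TFEB in cadmium is not drawn because of its counts of 1 and 0 at 25 µM. In copper and lead the SQSTM1 line stands apart from the other members, while in arsenic 9 lines rise between 2.5 and 25 µM and TFEB is at -0.74.

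A linear trend over the 4 doses, without the controls, describes the same libraries in another way, so it adds no independent support. Its unit is the log2 change per 10-fold dose step. In arsenic 9 members were called (29.7% of all genes), all but TFEB, with SQSTM1 at 1.21 ± 0.04 and MAP1LC3B at 1.12 ± 0.04. In thiram 6 were called (18.5%), led by GABARAPL1 at 0.80 ± 0.06, and in cadmium 4 (8.96%): SQSTM1 0.91 ± 0.04, MAP1LC3B 0.80 ± 0.05, GABARAPL1 0.48 ± 0.16 and TAX1BP1 0.39 ± 0.09. Without cadmium replicate 1 the number was 2. In copper (1.71%) and lead (0.868%) the only member called was SQSTM1, at 0.39 ± 0.04 and 0.43 ± 0.04. Replicate numbers paired the lead libraries, and with the replicate number as a block 3 members were called in lead.

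The direct difference between arsenic and cadmium at 25 µM was called for 5 members, all higher in arsenic, where 8.56% of all genes were called. The log2 differences were 1.63 ± 0.41 for GABARAPL1, 1.51 ± 0.36 for NBR1, 1.34 ± 0.31 for OPTN, 1.29 ± 0.17 for MAP1LC3B and 0.76 ± 0.15 for SQSTM1. Each of the other 5 had a positive difference that was not called. Cadmium libraries needed the scaling most: their TMM factors were 0.491 and 0.556, against 0.951 to 1.13 in the water controls, and over all genes the median log2 value was -1.42 in cadmium and 0.00 in arsenic. With DESeq2 the cadmium median over all genes was 0.07, 6591 of 24295 genes were called against 2684 in edgeR, and 8 members were called in cadmium, 6 higher, with NBR1 at -0.66 and TFEB lower. Relative to library totals, without TMM, SQSTM1 in the 2 cadmium libraries was 1438 and 1442 CPM against 322 to 447 in the water controls, and MAP1LC3B 282 and 407 against 88.0 to 135. On that scale OPTN (40.4 and 51.6 against 25.9 to 76.6), TAX1BP1 (46.1 and 88.6 against 42.1 to 77.4), GABARAPL1 (26.5 and 30.2 against 15 to 28.7) and CALCOCO2 (40.6 and 68.3 against 60.8 to 111) overlapped with the controls. NBR1, at 31.4 and 34.4 against 88.6 to 138, lay below them on both scales. Without cadmium replicate 1, 3 members were called in the difference.

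On the plate of DDE, all 10 members had negative values at 25 µM and 2 were called, OPTN (-1.12 ± 0.31) and GABARAPL1 (-1.64 ± 0.49). GABARAPL1 held 38.2, 17.5, 17.5 and 18.2 CPM at 25 µM. Its 8 controls ran from 38.5 to 163 CPM with a median of 45, the 3 high ones being numbers 9, 15 and 16 at 128, 91.8 and 163. OPTN held 90, 54.7, 44.6 and 55 CPM against 84.1 to 213 in the controls. The GABARAPL1 means over the doses lay below all 8 controls, with 1 high library at 0.025 µM (87.6 CPM, number 16) and 1 at 2.5 µM (58.4 CPM, number 8). No member had a called trend over the doses in edgeR's test. The same held for all 13921 genes tested, so nothing about the members is read from it. Both calls were lost without replicate 2 or without replicate 3 of the 25 µM group (GABARAPL1 -1.53 and -1.54, OPTN -1.08 and -1.01). When the end-numbered libraries 1, 8, 9 and 16 were left out, 7 members were called. The share of all genes called in that fit is not reported here. Whether the solvent label, the library number or the exposure goes with the lower values was not tested.

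**Figure D4:**
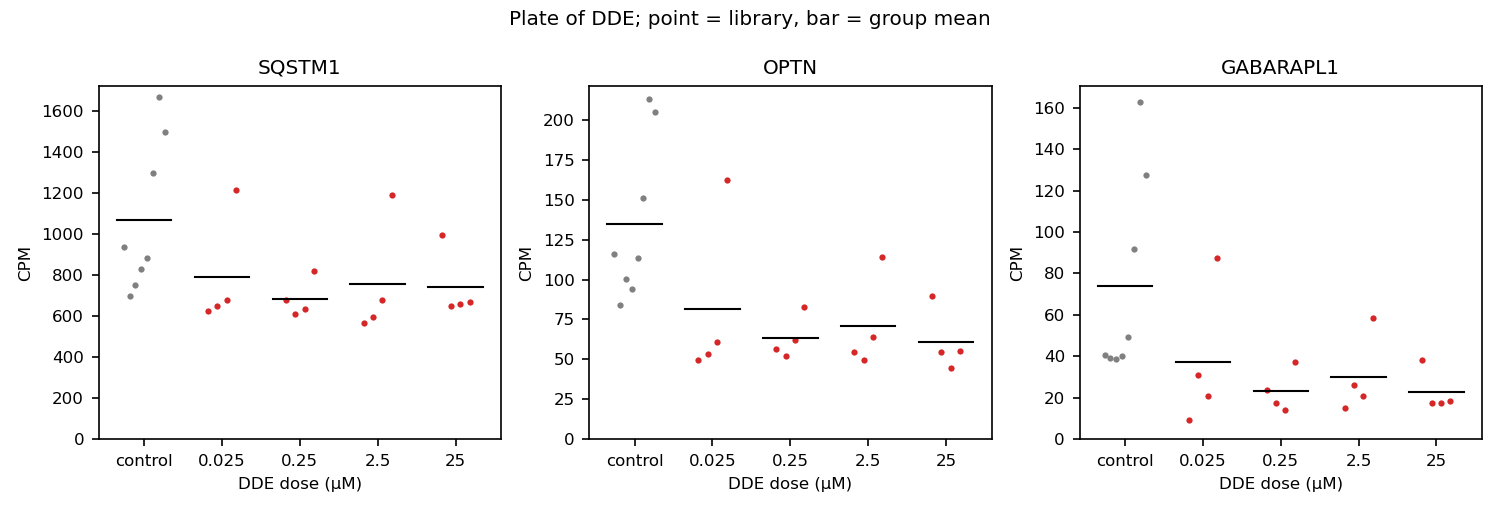
SQSTM1, OPTN and GABARAPL1 in CPM (vertical axes, from 0) in the 8 controls and 4 DDE doses in µM of the DDE plate; points are libraries and bars group means. For GABARAPL1, 3 controls lie at 91.8 to 163 CPM and the other 5 at 38.5 to 49.1, and each dose has 1 library above the rest.

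Control libraries alone give a comparison with no dosed library in it. Earlier results of the same files were known when the members were chosen, so the p-values here are also descriptions. Low-numbered and high-numbered controls differed for 3 members on plate 3206-AT, where 1.69% of all genes were called by edgeR: OPTN by 0.36 ± 0.10 (adjusted p = 0.0342), CALCOCO2 by 0.31 ± 0.09 (0.0349) and SQSTM1 by 0.22 ± 0.06 (0.0428), each higher in the low-numbered ones. Without the lowest-total control of each set of numbers, 1 of these was called. No member was called between these sets on 3153-AT (5.42% of genes), 3240-AT (0.175%) or 3284-AT (1.55%). On 3153-AT the values ran from -0.09 (WIPI1) to 0.36 (GABARAPL1). Water and DMSO controls of 3240-AT differed in 4.08% of genes and in none of the members; SQSTM1 was 0.15 ± 0.10 lower in water on the log2 scale (edgeR adjusted p = 0.471).

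The wider pathway was read from 54 autophagy genes grouped by role: 18 of initiation and nucleation, 15 of conjugation and the ATG8 family, 15 other receptors and 6 of fusion. All gene lists used from here on were also chosen with earlier results known. Most genes named from the autophagy and lysosome lists are the extremes among called genes. Their p-values, and those of the regulators and NRF2 targets, are therefore descriptions and not independent support. In arsenic 31 rose and 5 fell, where 41.4% of all genes were called, with a median log2 value of 0.50 beside 0.00 over all genes. By role, 10 of 18 initiation genes rose, 8 of 15 conjugation genes, 10 of 15 other receptors and 3 of 6 fusion genes. BNIP3L, a mitophagy receptor, rose by 2.0 ± 0.25 (263 ± 31.7 against 61.1 ± 20.5 CPM, n = 4 and 15; edgeR adjusted p = 3.9e-11). TEX264, a receptor for the endoplasmic reticulum, fell by 1.62 ± 0.16 (edgeR adjusted p = 2.7e-15), below all controls in all 4 libraries. TBK1, the kinase that phosphorylates OPTN and SQSTM1, fell by 1.22 ± 0.16 (edgeR adjusted p = 1.8e-10), and PHB2, a mitochondrial inner membrane receptor, fell by 1.18 ± 0.08 (edgeR adjusted p = 3.0e-24).

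Thiram changed 17 of the 53 pathway genes tested, 11 higher and 6 lower, where 25.9% of all genes were called (median 0.09, all genes -0.11). TEX264 fell there too, by 1.29 ± 0.16 (edgeR adjusted p = 4.4e-11), as in cadmium, by 1.18 ± 0.41 (0.047). PHB2 fell by 0.72 ± 0.10 in thiram (edgeR adjusted p = 2.9e-09). RAB7A, the GTPase of late endosomes, rose by 0.96 ± 0.07 (460 ± 73.1 against 238 ± 18.6 CPM; edgeR adjusted p = 1.9e-21), and by 1.66 ± 0.06 in arsenic (8.1e-44) and 1.26 ± 0.10 in cadmium (5.8e-19). ATG10, a conjugating enzyme, fell by 1.28 ± 0.37 in thiram (edgeR adjusted p = 0.0046) and by 0.87 ± 0.24 in arsenic (0.0017). PIK3R4, a subunit of the lipid kinase complex, fell by 0.85 ± 0.28 in thiram (edgeR adjusted p = 0.013). No thiram library lay below the lowest control for ATG10 or PIK3R4. Cadmium changed 11 of 54, 6 higher and 5 lower, where 11% of all genes were called, with a median of -0.11 beside -1.42 over all genes; over the 46 genes with a mean of at least 1 CPM in both groups the median was 0.06. PLEKHM1, a fusion adaptor, rose by 2.93 ± 0.41 (edgeR adjusted p = 2.7e-08), and by 1.08 ± 0.19 in arsenic and 0.62 ± 0.24 in thiram (9.4e-07 and 0.045). ATG3, which attaches ATG8 proteins to lipid, fell by 1.69 ± 0.31 (edgeR adjusted p = 1.7e-05) but rose by 0.34 ± 0.09 in arsenic (0.0014). SNAP29, a fusion SNARE, fell by 1.97 ± 0.63 (edgeR adjusted p = 0.026), and TBK1 fell by 1.62 ± 0.56 (edgeR adjusted p = 0.046). The number in cadmium was 4 without replicate 1, 7 with another scaling (6 higher) and 25 with DESeq2 (14 higher). Of 24295 genes tested, that scaling called 2568 and DESeq2 6591. The DESeq2 medians in cadmium were 0.03 for the list and 0.07 over all genes, so the gap between the edgeR medians depends on the method.

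In copper 3 of the 54 were called, a share close to the 5.09% of all genes. ATG101, a subunit of the ULK1 complex, rose by 0.36 ± 0.11 (edgeR adjusted p = 0.042), and by 1.02 ± 0.11 in arsenic and 0.71 ± 0.15 in thiram (4.9e-13 and 0.00012). BNIP3L fell by 1.14 ± 0.31 (edgeR adjusted p = 0.014), and GABARAP, an ATG8-family gene outside the rule for naming genes, fell by 1.01. No copper library lay below the lowest control for BNIP3L or GABARAP. Without copper replicate 2 the count was 1. Lead, DDE and MPB changed none of the listed autophagy genes in edgeR's test, where 3.85%, 7.77% and 1.38% of all genes were called. The other 14 chemicals likewise had none called, where 0.0186% of pooled gene tests were. Nothing about the autophagy genes is read from these counts.

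Lysosomal genes, which TFEB-type factors control, were counted from a list of 19. In arsenic 16 rose and none fell (median 1.25), in cadmium 10 rose (median 0.48), in thiram 7 rose and 3 fell (0.10), in copper 3 rose and 1 fell, in lead 3 rose, and in DDE 1 fell. The shares called over all genes were 41.4% in arsenic, 11% in cadmium, 25.9% in thiram, 5.09% in copper, 3.85% in lead and 7.77% in DDE. LAMP1, a major lysosomal membrane protein, rose in 4 of these: by 3.57 ± 0.20 in arsenic (197 ± 93.2 against 15.5 ± 4.87 CPM; edgeR adjusted p = 6.2e-30), 3.12 ± 0.50 in cadmium (9.8e-07), 2.56 ± 0.18 in thiram (1.5e-23) and 0.96 ± 0.23 in lead (0.0041). GLA, the alpha-galactosidase gene, rose by 1.08 ± 0.13 in thiram (2.1e-11), 0.98 ± 0.10 in arsenic (1.2e-14), 0.86 ± 0.23 in cadmium (0.0051), 0.45 ± 0.10 in lead (0.0018) and 0.36 ± 0.10 in copper (0.015), all by edgeR's test. The protease gene CTSL rose by 0.72 ± 0.10 in lead (250 ± 16.1 against 152 ± 17.2 CPM) and 0.67 ± 0.10 in copper, both with all 4 libraries above the controls (edgeR adjusted p = 6.3e-08 and 2.7e-07), and by 0.73 ± 0.10 in arsenic (1.3e-09). CTSB, another protease gene, rose by 1.29 ± 0.12 in arsenic, 0.73 ± 0.19 in cadmium and 0.51 ± 0.12 in copper (edgeR adjusted p = 1.1e-16, 0.0049 and 0.0036). In copper CTSB held 653 ± 260 CPM against 452 ± 87.9, and 2 of the 4 libraries lay above the highest control. CTSD fell by 0.82 ± 0.16 in thiram, 0.60 ± 0.18 in copper and 0.72 ± 0.19 in DDE (edgeR adjusted p = 1.8e-05, 0.025 and 0.031). Without cadmium replicate 1 the lysosomal count was 6, without copper replicate 1 or 2 it was 2, and without DDE replicate 2 or 3 it was 0. DESeq2 called 14 of the list in cadmium, 12 higher and 2 lower, with medians of 0.64 for the list and 0.07 over all genes. In edgeR the median over all genes was 0.00 in arsenic, -1.42 in cadmium and -0.11 in thiram. Cadmium values are after TMM scaling with factors of 0.491 and 0.556. Relative to library totals each cadmium level is the value after TMM multiplied by its factor. The cadmium differences of GLA (147 against 79.7 CPM) and CTSB (759 against 452 CPM) are about as large as this scaling, or smaller. That of LAMP1 (145 against 15.5 CPM) is larger. Whether any cadmium rise would be called on that scale was not tested.

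**Figure D5:**
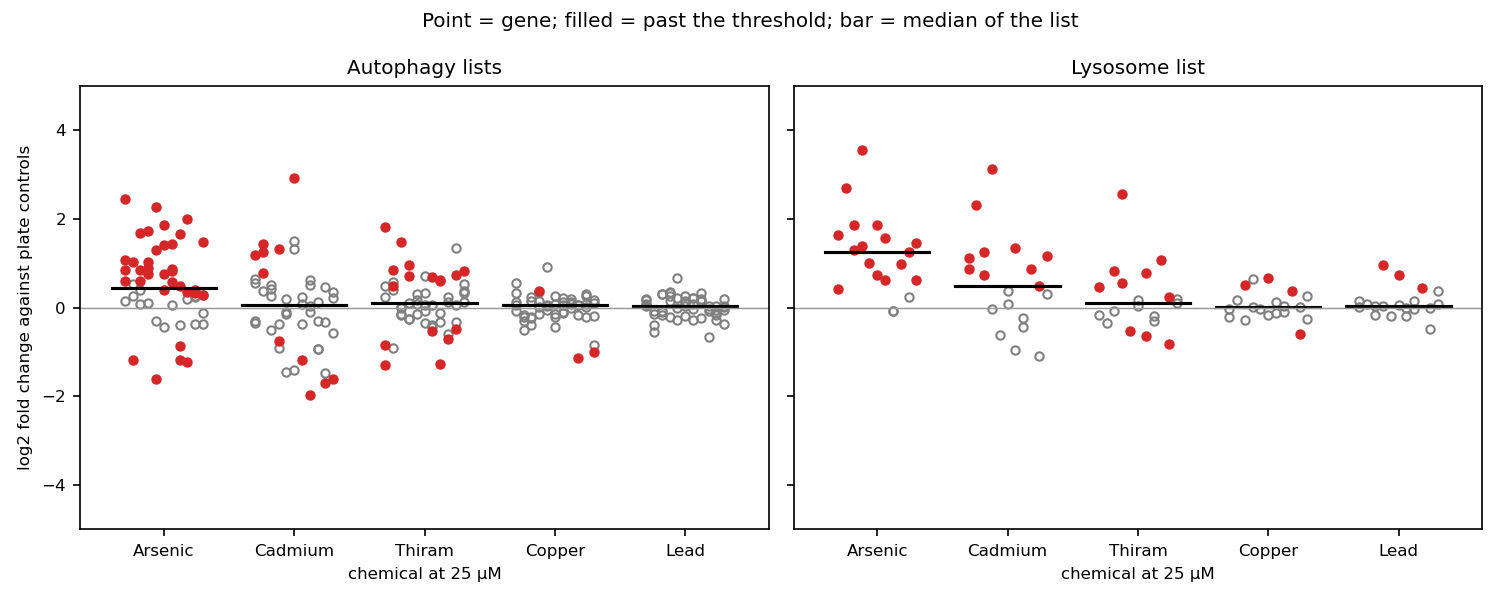
Log2 fold change at 25 µM (vertical axis) of the listed autophagy genes (left) and 19 lysosomal genes (right) in 5 chemicals; points are genes, filled where called, bars are medians over the genes drawn, and genes with a mean under 1 CPM in either group are not drawn (46 autophagy genes drawn in cadmium). After TMM scaling the lysosomal median is 1.25 in arsenic and 0.48 in cadmium, and near 0 in copper and lead. Over all genes the median in cadmium is -1.42 with TMM scaling and 0.07 with DESeq2.

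Among the regulators, TFE3, a relative of TFEB, rose in arsenic (0.69 ± 0.12, edgeR adjusted p = 7.5e-07) and thiram (0.80 ± 0.17, edgeR adjusted p = 0.00011); its difference from TFEB was not tested. MITF, the third of that family measured, was not called in either (-0.66 ± 0.42 and 1.09 ± 0.48), and fell by 1.40 ± 0.42 in DDE (edgeR adjusted p = 0.046). NFE2L2 rose by 0.46 ± 0.09 in arsenic and 0.72 ± 0.12 in thiram, and fell by 1.22 ± 0.26 in cadmium (edgeR adjusted p = 4.6e-06, 4.9e-07 and 0.00032). KEAP1, which marks NFE2L2 for degradation and binds SQSTM1, rose by 0.35 ± 0.10 in arsenic and fell by 3.67 ± 0.44 in cadmium (edgeR adjusted p = 0.0013 and 1.0e-10). In cadmium KEAP1 held 8.86 ± 10.6 CPM (SD, n = 2) against 119 ± 12.9 in the 15 controls. In copper and lead none of these 4 regulators was called. The 8 listed NRF2 targets other than SQSTM1 all rose in copper and lead, where 5.09% and 3.85% of all genes were called. Their medians were 1.29 and 1.21, beside -0.01 and -0.02 over all genes. In mercury and in BPF 2 of the 8 rose, where 15 of 24295 and 4 of 22301 genes were called. In arsenic 7 rose and GCLC fell by 0.63 ± 0.14 (edgeR adjusted p = 7.7e-05). In thiram 7 rose and GCLC fell by 0.52 ± 0.15 (edgeR adjusted p = 0.0055). In cadmium 5 rose and GCLC fell by 1.59 ± 0.36 (edgeR adjusted p = 0.00072). These cadmium values come from 2 libraries after TMM scaling with factors of 0.491 and 0.556. TXNRD1, among the 5 that rose, held 422 against 230 CPM, a difference about as large as that scaling. The other called rises were larger. Over all genes 41.4% were called in arsenic, 25.9% in thiram and 11% in cadmium, with a cadmium median of -1.42 (0.07 with DESeq2). GCLC, which codes for a subunit of the glutathione-synthesis enzyme, rose by 0.89 ± 0.12 in copper and 0.77 ± 0.12 in lead (edgeR adjusted p = 2.7e-08 and 4.8e-06).

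Of the markers of other cells, the fibroblast pair COL1A1 and PDGFRA summed to between 2.70 and 7.01 CPM in arsenic at 25 µM and between 0 and 2.96 in its controls. The blood pair PTPRC and CD3E did not exceed 1.62 CPM and the endothelial pair PECAM1 and CDH5 did not exceed 2.59 CPM in arsenic. In thiram the fibroblast pair ran from 0 to 9.82 CPM against 0 to 8.07 in the controls, and the blood pair reached 1.69 CPM against 0. In cadmium the endothelial pair was at 0 and the fibroblast pair at 0 and 2.75 CPM. Their part in the results was not tested.

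The genes whose log2 fold changes were most like those of SQSTM1 over the 80 chemical and dose groups of the 4 larger plates included FTL (Pearson r = 0.95), ANXA5 (0.94), ARF4 (0.94) and ME1 (0.94), among 7181 well-expressed genes. These groups share controls within a plate, so r is only a description. Without arsenic, cadmium and thiram at 25 µM, over 77 groups, r was 0.87 for FTL, 0.79 for ME1, 0.72 for ANXA5 and 0.67 for ARF4. Among the members, MAP1LC3B ranked 8 (0.92, and 0.63 without the 3 groups), followed by TAX1BP1 (0.85 and 0.21), GABARAPL1 (0.84 and 0.40) and OPTN (0.82 and 0.23). CALCOCO2 went from 0.54 to -0.43 and NBR1 from -0.12 to -0.32. The likeness of TAX1BP1, OPTN and CALCOCO2 to SQSTM1 thus rested on those 3 groups.

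The members lie on several chromosomes of GRCh38 (GENCODE annotation): SQSTM1 at chr5:179806398-179838078, MAP1LC3B at chr16:87383995-87404779, GABARAPL1 at chr12:10212458-10223130 and ULK1 at chr12:131894651-131923167. SQSTM1 overlaps the protein-coding genes MGAT4B and MRNIP on the opposite strand, MAP1LC3B overlaps FBXO31, OPTN overlaps CCDC3, TAX1BP1 overlaps JAZF1 and WIPI1 overlaps ARSG, each on the opposite strand. CALCOCO2 overlaps no annotated gene. Whether counting used the strand is not given in the sources used here, so reads of overlapping genes may not be separable.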

How the data were processed

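The deposited files hold whole-number counts of reads per gene symbol, 1 file per library, as the authors made them. The submitters' processing notes name FastQC, MultiQC, STAR, featureCounts and GRCh38; their versions, the annotation, the strand setting and any filter were not given there. The members and gene lists were chosen with earlier results of these data known. Each plate was fitted alone with edgeR 4.0.16 (R 4.3.3): filterByExpr (minimum count 10, minimum total 15), TMM scaling, 1 mean per group and the quasi-likelihood test, with Benjamini-Hochberg adjustment over all genes of a comparison and a threshold of 0.05. The trend contrast weighted the 4 doses by -3, -1, 1 and 3. DESeq2 1.42.0, RLE scaling, no filter, leaving out replicates, splits by library number and a replicate block were alternatives. The edgeR steps were also run on simulated counts shaped on arsenic at 25 µM and its controls, with a small set of genes changed, balanced in direction. That simulation did not cover changes in a large share of genes or the depth and scaling of cadmium, so it cannot speak to them. CPM values use the TMM-scaled library, and an SE is that of the fitted log2 fold change. Depth limits low genes such as TFEB, WIPI1 and ULK1, above all in cadmium. From the wider lists, the genes named are the 3 highest and 3 lowest called per chemical with average log2 CPM of at least 4, for chemicals with more than 100 genes called, and 4 regulators; genes like SQSTM1 are the 5 with the highest r. Some genes that these rules pick are not reported here. Replicate numbers were taken to pair libraries where every correlation of same-numbered deviations passed 0.1, which held for copper, lead, mercury and PFOA. The library labelled cadmium 25 µM with the barcode of plate 3284-AT was left out.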

Additional observations from a re-analysis of the deposited data

Results flagged for a closer look

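In 4 of the 30 groups of member values tested, 1 library stood far from the others of its group; chance alone marks about 1 group in 20. SQSTM1 in PCB153 at 0.25 µM was 2383 CPM in replicate 3 and 463 to 504 in the other replicates. SQSTM1 in arsenic at 2.5 µM was 858 CPM in replicate 4 and 516 to 572 in the others. SQSTM1 in cadmium at 2.5 µM was 501 CPM in replicate 2 and 439 to 447 in the others. GABARAPL1 in DDE at 25 µM was 38.2 CPM in replicate 1 and 17.5 to 18.2 in the others.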

How the results depend on the processing

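Of 402 alternative counts for 38 counted results, 308 stayed within 1.5 times the value given, and of 365 alternative values for 31 member values, 326 kept the call, 39 lost it and 0 changed sign. Members called at 25 µM: DESeq2 gave 8 in cadmium, 5 in DDE and 3 in lead. Over all genes DESeq2 called 6591 of 24295 in cadmium, 1605 of 13921 in DDE and 962 of 24295 in lead. For most other alternatives in this section the share over all genes is not reported here. Nothing about the members or lists is therefore read from these counts. Lead had 3 with a term for the number set and 2 with low-numbered controls, high-numbered controls or low-numbered libraries only. Copper had 1 with low-numbered controls or high-numbered libraries only, and DDE 7 without its end-numbered libraries. Over the 14 other chemicals, 1 was called without the filter, with the set term, with high-numbered controls and with low- or high-numbered libraries only. Leaving out a replicate gave 1 to 2 in copper, 0 to 4 in DDE and 1 to 2 in lead. At 0.025 µM there were 2 with low-numbered libraries only and 7 without the DDE end libraries, and 0 to 6 without a replicate. At 0.25 µM there were 2 without the filter, with the set term, with high-numbered controls or high-numbered libraries, 3 with low-numbered libraries, 5 with DESeq2 and 9 without the DDE end libraries, and 0 to 3 without a replicate. At 2.5 µM there were 8 and 7 with low- and high-numbered libraries, 12 without the DDE end libraries and 3 to 11 without a replicate.

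Trends: cadmium had 8 with DESeq2 and 2 to 3 without a replicate, copper 2 with the set term and 3 with low-numbered libraries, and lead 3 with the set term, 2 with high-numbered libraries, 2 with DESeq2 and 3 with the replicate block. The block left the counts at 9 in arsenic, 4 in cadmium, 1 in copper and 6 in thiram; numbers paired libraries in copper and lead but not in the other 3. Autophagy lists: cadmium had 7 with RLE, 7 with the set term, 6 with low-numbered libraries, 25 with DESeq2 and 4 to 10 without a replicate. Copper had 6 with the set term, 9 and 1 with low- and high-numbered libraries, 5 with DESeq2 and 1 to 4 without a replicate. DDE had 6 with DESeq2, 6 without end libraries and 0 to 2 without a replicate. Lead had 1 with RLE, 6 with the set term, 1 and 4 with low- and high-numbered controls, 5 and 1 with low- and high-numbered libraries, 3 with DESeq2 and 0 to 1 without a replicate. MPB had 1 without the filter, 1 with the set term, 2 with low-numbered controls and 2 with low-numbered libraries, and thiram 10 with either set of libraries. Lysosome list: cadmium had 6 to 11 without a replicate, copper 1 with high-numbered libraries and 2 to 4 without a replicate. DDE had 4 with DESeq2, 4 without end libraries and 0 to 2 without a replicate. Lead had 5 without the filter, with the set term or with low-numbered libraries, and MPB 1 without the filter, with low- or high-numbered controls and with low-numbered libraries. Arsenic against cadmium gave 8 with the cadmium library of the other barcode added, 8 with DESeq2 and 3 to 5 without a replicate. Low- against high-numbered controls gave 1 on 3284-AT with DESeq2 and 1 on 3206-AT with the lowest-total control of each set left out. The cause was not tested. The median over all genes moved from 0.00 to 0.14 in arsenic and from -1.42 to -1.25 in cadmium with RLE scaling.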

Other observations

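The library labelled cadmium 25 µM that carries the barcode of plate 3284-AT had a total of 1284517 counts. Relative to library totals, it held 437 CPM of SQSTM1, where the DMSO controls of plate 3284-AT ran from 360 to 567, the water controls of plate 3153-AT from 322 to 447, and the other 2 cadmium libraries at 25 µM held 1438 and 1442. MAP1LC3B was 105 CPM in it, inside both control ranges (94.9 to 143 and 88.0 to 135) and below the other cadmium libraries (282 and 407). GABARAPL1 was 31.1 CPM, TAX1BP1 49.8 CPM and NBR1 50.6 CPM, the last below both sets of controls (from 82.1 and 88.6) and above the cadmium libraries (31.4 and 34.4).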
